A study of Homo sapiens with 24 samples.

Results

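The 12 h response of MB468res-R8 cells to homocysteine medium was described from 6 of the 24 RNA libraries of the series. Members were all gene entries other than spike-ins, compared between the 3 libraries collected at 12 h and the 3 collected at 0 h. Of 26645 gene entries, 14741 passed a filter on low counts and were tested. MDA-MB-468 (MB468) is a human triple-negative breast cancer cell line that requires methionine (Met), and MB468res-R8 (R8) is a derivative of it, grown from 1 revertant clone, able to grow on the Met precursor homocysteine (Hcy) in place of Met. At 0 h, R8 cells were in Met+ medium with 100 µM Met. At 12 h they had been in Met-Hcy+ medium, which lacks Met and holds 370 µM DL-homocysteine. Both media shared dialyzed serum, vitamin B12, glutamine and cysteine. The parental MB468 line, sampled in the same 2 conditions with 3 libraries each, and the R8 libraries at 0.5 and 2 h are used for comparison. No R8 library came from cells kept for 12 h in fresh Met+ medium, so the change of medium and the time in culture cannot be told apart, and R8, being 1 clone, stands for itself and not for revertants in general.

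Cells make Met from Hcy by the vitamin B12-dependent enzyme methionine synthase, and convert Met to S-adenosylmethionine, the methyl donor for DNA, RNA, proteins and phospholipids. Hcy can instead leave the cycle by transsulfuration to cysteine. Shortage of an amino acid raises translation of the transcription factor ATF4, which switches on amino acid synthesis and transport genes and, with its partner CHOP, stress genes. Immediate early genes such as FOS and EGR1 are transcribed within minutes of a growth signal and their short-lived mRNAs then disappear.

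Poly(A)+ RNA was sequenced and counted per gene by the authors. The 0 h libraries held 17414809 to 29075733 gene counts and the 12 h libraries 20400109 to 26083215. Spike-in RNA made up 0.252% to 0.271% and 0.226% to 0.296% of counts, and 17085 to 17735 and 16762 to 17066 genes had at least 1 count. BCHE, chosen with earlier results of these data known, differed between the lines. In R8 it was at 36.7 to 43.7 CPM (the count as a share of its library, on a common scale) at 0 h. It was at 22.9 to 23.7 in R8 at 12 h but at 0 to 0.118 in MB468 at 0 h. Being so chosen, it is no independent check of the labels. The summed level of 12 breast epithelial markers was 11800 to 12400 CPM at 0 h and 12800 to 13500 at 12 h, with EGFR the most abundant. Summed markers of other cells were low, each sum carried mainly by 1 gene, and lower at 12 h. The sum of 9 fibroblast markers went from 56.4 to 74.2 CPM at 0 h to 30.7 to 40 at 12 h, with COL1A2, COL3A1 and DCN at 0 in every 12 h library. Sums for 9 leukocyte markers (50.7 to 57.5 against 30.9 to 32.7 CPM, CD3D, MS4A1 and LYZ at 0 in all 6 libraries) and 6 endothelial markers (46.3 to 50.7 against 10.4 to 12.2) were also lower. The leading genes were COL1A1, CD14 and KDR. Single markers went the other way, as the fibroblast marker FAP rose by 2.25 and the leukocyte marker CD68 by 0.75 on the log2 scale. These are bulk measurements, in which fewer cells of a kind and less RNA per cell cannot be told apart. Replicates of a group are taken as separate cultures, although the labels do not say so, and p-values measure the spread between these libraries. Their pairs differed by 3.05 to 5.97 times the variance expected from counting alone.

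Most of the transcriptome moved by a small amount. Of the 14741 genes, 9036 (61.3%) passed edgeR's quasi-likelihood test with an adjusted p (Benjamini-Hochberg) below 0.05 and are here said to have changed, 4450 (30.2%) rising and 4586 (31.1%) falling. The median absolute log2 fold change of these genes was 0.45. In 8559 of them the 0 h and 12 h libraries did not overlap, which largely follows from the call and is no separate support for it. Changes of at least 2-fold were fewer and mostly downward, with 220 genes higher (1.49%) and 1227 lower (8.32%). These numbers were 136 and 725 when every library had to hold at least 10 counts, and 55 and 494 for genes with a mean of at least 3 on the log2 CPM scale, a limit chosen after seeing the data. The median over all tested genes was -0.02. Counts of list members that rose or fell are to be read beside the shares of 30.2% and 31.1% of all tested genes. Some lists had a smaller share called than the 61.3% of all genes. These were replication and oxidative phosphorylation (52.5% each), endoplasmic reticulum chaperones and degradation (51.9%), and beta-oxidation and interferon-stimulated genes (56.5% each). Values below are counts normalized for library size, and log2 fold changes are 12 h relative to 0 h with their standard errors (SE). Each SE was derived from the test, as the absolute log2 fold change over the square root of its F statistic.

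The share of genes with large falls was greatest among weakly expressed genes. Among 2726 genes with a mean level under 1 on the log2 CPM scale, 555 (20.4%) fell and 113 (4.15%) rose at least 2-fold, with a median of -0.38. Among the 6520 genes over 5 on that scale the numbers were 255 (3.91%) and 34 (0.521%), with a median of 0.06. Long noncoding RNAs had 147 of 879 genes (16.7%) falling and 9 (1.02%) rising 2-fold, against 991 (7.71%) and 191 (1.49%) of 12852 protein-coding genes. The genes under 1 held 0.222% to 0.232% of counts in the 0 h libraries and 0.183% to 0.185% in the 12 h libraries, and the part of library composition in this pattern was not tested.

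**Figure D1:**
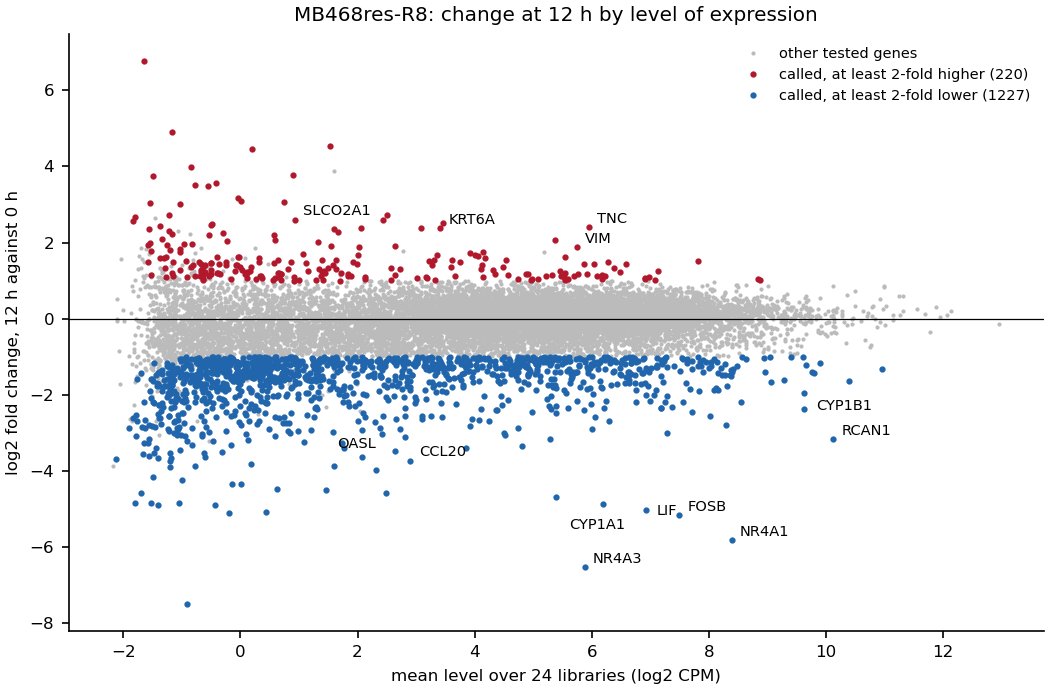
Change in MB468res-R8 at 12 h by level of expression: each point is 1 of the 14741 tested genes, with its mean level over 24 libraries (x axis, log2 CPM) and its log2 fold change from 0 h to 12 h (y axis). Red points are the 220 genes called and at least 2-fold higher and blue points the 1227 at least 2-fold lower, and at high levels the deepest points are NR4A3, NR4A1, FOSB, LIF and CYP1A1.

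Of the response lists, immediate early transcription factors had the lowest median. Of 25 tested members of this list, 22 fell, 16 of them at least 2-fold, 1 rose and 2 were not called, and the median was -2.02. To show the control regions of genes in the groups that moved most, the 250 bases before the annotated start were taken from RefSeq (GRCh38.p14). Capitals mark the CRE half-site TGACG (the letters bound by CREB and ATF factors), read as TGACG or CGTCA, and in EGR1 also 2 CArG boxes, which serum response factor binds.

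FOSB, chr19:45467746-45467995, plus strand: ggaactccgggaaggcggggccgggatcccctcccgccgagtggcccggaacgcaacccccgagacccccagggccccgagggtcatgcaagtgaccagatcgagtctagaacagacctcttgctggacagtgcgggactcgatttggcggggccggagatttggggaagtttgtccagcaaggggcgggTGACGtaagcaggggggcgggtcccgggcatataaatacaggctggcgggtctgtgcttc
EGR1, chr5:138465229-138465478, plus strand: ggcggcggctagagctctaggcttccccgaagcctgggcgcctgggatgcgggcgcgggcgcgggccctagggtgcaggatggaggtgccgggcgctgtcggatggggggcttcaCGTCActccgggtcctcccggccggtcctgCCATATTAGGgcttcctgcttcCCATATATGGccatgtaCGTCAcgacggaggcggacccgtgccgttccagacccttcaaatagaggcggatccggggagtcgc

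The FOSB half-site begins 60 bases before the start, and those of EGR1 135 and 66 bases before it. At least 1 half-site was found on either strand in 14 of the 20 immediate early factors that had a RefSeq promoter (70%), among them FOS, FOSB, JUN, JUNB, NR4A3, MAFF and EGR1, against 21.7% of all 27305 promoters. The share was also above that in lists that moved less or rose, at 43.8% for sterol synthesis and for heat shock, 39.5% for ribosome biogenesis, 35.3% for G2 and mitosis and 34.6% for ATF4 and CHOP targets. The CArG boxes of EGR1 begin 105 and 83 bases before the start. A match describes letters in this window and is not evidence that a factor binds.

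NR4A3, an orphan nuclear receptor, fell the most among the genes named by size. Its normalized counts were 2918, 2640 and 1502 at 0 h and 22.4, 25.1 and 30.2 at 12 h. All 12 h libraries were far below the lowest 0 h library, a fitted 91.4-fold fall and a log2 fold change of -6.51 (SE 0.58, adjusted p = 2.94e-08). NR4A1, of the same family, was at 6001, 5640 and 3202 and then at 80.5, 95.7 and 90.6. The groups were again apart, by -5.81 (SE 0.33, adjusted p = 6.27e-11). FOSB, a subunit of AP-1, was at 1436, 1403 and 902.2 before and 31.3, 39.9 and 35.9 after. It fell by 5.15 on the log2 scale (SE 0.33, adjusted p = 2.49e-10). For NR4A3, NR4A1 and FOSB the third 0 h library was the lowest of its group, yet still far above the highest 12 h library.

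EGR3, a zinc-finger factor, was at 203, 245 and 138.6 at 0 h and 4.47, 9.11 and 9.44 at 12 h (-4.69, SE 0.46). EGR1 itself fell less, from 869.2, 1048 and 1019 to 178.8, 288.1 and 188.8, with no overlap (-2.18, SE 0.14, adjusted p = 1.56e-10). FOS, JUN and ATF3 lay close to it, at -2.18, -2.20 and -2.18. The abundant MAFF fell from 4416, 4475 and 3772 to 523.9, 529.5 and 530.5 (-3.00, SE 0.11). MYC, which drives growth genes, was only slightly lower, at 8734, 9824 and 9524 against 7806, 7318 and 8121 (-0.27, SE 0.05). HES1, a Notch-responsive repressor, was the member that rose, by 0.80 (SE 0.12).

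Genes that act beside these factors fell less as groups. Of 19 immediate early genes for mRNA decay and signalling, 13 fell and 6 were not called, with a median of -0.48. The matricellular protein genes CYR61 (CCN1) and CTGF (CCN2), targets of the YAP pathway, were at 7861, 8179 and 8428 and at 9615, 9913 and 10590 normalized counts at 0 h. At 12 h CYR61 was at 1099, 1335 and 1083 (-2.80, SE 0.06), and CTGF at 1781, 2245 and 1831 (-2.37, SE 0.10). RCAN1, a calcineurin inhibitor, fell 8.97-fold from a high level, from 27330, 27690 and 27050 to 2770, 3320 and 3068 (-3.17, SE 0.13). Of 18 feedback genes of the MAP kinase pathway, 9 fell and 6 rose (median -0.17), with the phosphatase genes DUSP1 at -1.86 and DUSP6 at 0.82.

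Among 11 tested receptors and ligands of the EGFR family, 10 fell and only EGFR rose (median -0.92). The ligand HBEGF was at 953.2, 1021 and 968.9 at 0 h and 183.3, 187.9 and 159.5 at 12 h. Its groups were well apart (-2.47, SE 0.10, adjusted p = 9.27e-22). The ligands AREG and EPGN fell by 2.34 and 2.56 on the log2 scale, and EREG by 1.59. The receptor gene ERBB2 went from 1852, 2150 and 1760 to 996.9, 872.3 and 934.5, about -1.04 (SE 0.07). EGFR, which MB468 cells carry at very high levels, was at 68950, 73520 and 71290 and then 86670, 84160 and 83390 (0.25, SE 0.04), a rise that did not pass the test when spike-in totals set the library sizes.

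Of 15 NF-kB target genes, 11 fell and 2 rose (median -1.0). LIF, a cytokine of the IL-6 family, was at 1659, 1866 and 1505 normalized counts at 0 h and 40.2, 69.5 and 47.2 at 12 h. Every 12 h value was below every 0 h value, by -5.03 (SE 0.25, adjusted p = 7.81e-12). The chemokine gene CCL20 fell from 203.8, 165.6 and 151.7 to 6.26, 17.08 and 16.99 (-3.73, SE 0.22). IL6 fell by 1.93, RELB by 1.51 and TNFAIP3, an inhibitor of NF-kB signalling, by 1.50 on the log2 scale. ICAM1 and NFKBIZ were the 2 that rose, by 0.26 and 0.32, and neither passed the test when spike-in totals set the library sizes.

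**Figure D2:**
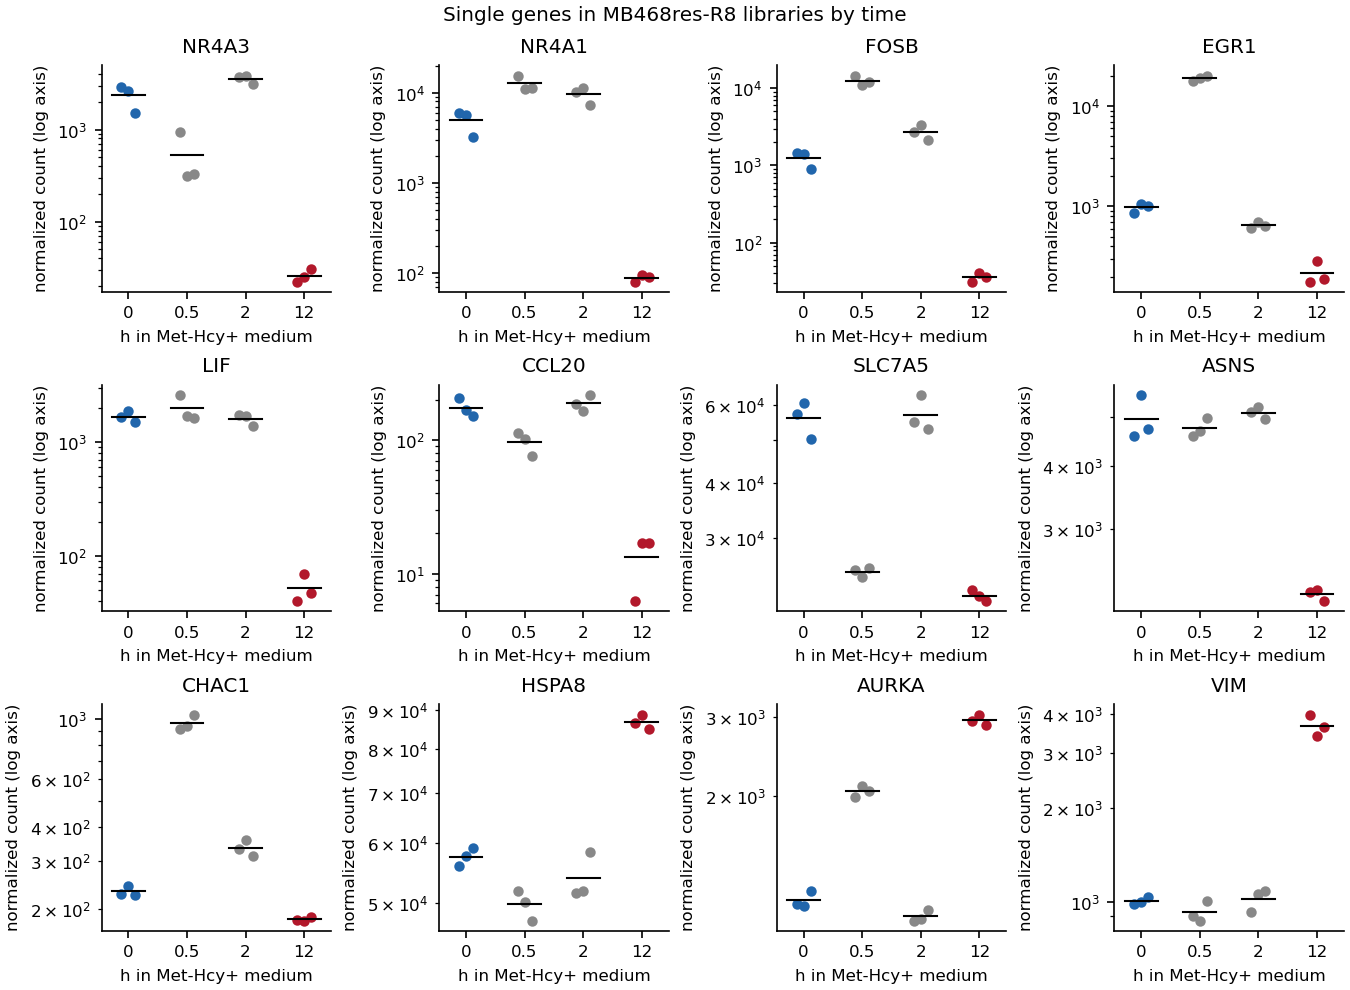
Single genes in the 12 MB468res-R8 libraries: normalized count (y axis, log scale) by hours in Met-Hcy+ medium (x axis), with 1 point per library, 3 per time, and a line at the mean. Blue points are 0 h, grey 0.5 and 2 h, and red 12 h. In all 12 panels the red points lie apart from the blue ones, with NR4A3 from 22.4 to 30.2 at 12 h and VIM from 3402 to 3982.

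Genes controlled by the aryl hydrocarbon receptor, a sensor of planar aromatic compounds, were among those with the smallest p. Of 8 tested, 5 fell and 3 were not called (median -1.11, or -0.52 over the 7 with at least 10 counts in every library). CYP1A1, a monooxygenase and the classical target, was at 5216, 4402 and 5216 at 0 h and 173.5, 183.3 and 152.9 at 12 h, a fitted 29.2-fold fall with no overlap (-4.87, SE 0.08, adjusted p = 4.19e-31). CYP1B1 went from 27380, 26890 and 28070 to 6857, 7637 and 6851. Its log2 fold change of -1.95 (SE 0.04, adjusted p = 2.76e-31) had the smallest adjusted p of the genes that fell. The feedback gene TIPARP fell by 1.69, and AHR itself by 0.52.

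Other deep falls named by their size were OASL, an interferon-induced gene (-3.46), SYNPO2, an actin-binding protein of the synaptopodin family (-3.41), SMIM5 (-3.99), BRE-AS1 (-3.88) and AVPI1 (-3.34). BRE-AS1 is antisense to its neighbour and the counting is not stated to use strand, so reads of the pair may not be told apart. Falls with the smallest p included ST3GAL1, a sialyltransferase (-1.87, SE 0.05), TIMP3, an inhibitor of metalloproteinases (-1.42, SE 0.04), TP53INP2 (-3.15, SE 0.09) and SH3PXD2B, an invadopodium scaffold (-1.48, SE 0.04). TIMP3 was at 25920, 25710 and 25990 normalized counts before and 9532, 10010 and 9496 after. The libraries of each group lay close together, and the group means differed by 2.67-fold.

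Sterol synthesis was lower throughout its pathway. Of 21 tested enzymes 20 fell and GGPS1 was not called (0.04), with a median of -0.59. HMGCS1, which makes the HMG-CoA used for mevalonate, was at 5604, 5831 and 5578 at 0 h and 2461, 2682 and 2639 at 12 h. The groups did not overlap (-1.13, SE 0.04, adjusted p = 8.2e-24). HMGCS1 and MSMO1 (-1.06) were the members that fell at least 2-fold.

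Regulators of the sterol pathway and lipoprotein genes were mostly lower too, 9 of 14 falling and 1 rising (median -0.50). INSIG1, which retains the SREBP complex in the endoplasmic reticulum, was at 4014, 3874 and 2739 and then at 659, 735.6 and 761.8 (-2.31, SE 0.13). SREBF2, which encodes SREBP-2, fell by 0.86. Of 7 targets of the liver X receptors, which are switched on by oxysterols, 6 fell (median -0.55), with the cholesterol exporter ABCG1 at -2.63.

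Fatty acid genes moved in the same direction and by less. Of 25 for synthesis, 14 fell and 2 rose (median -0.33), with FASN at -0.74, the desaturases SCD and FADS2 at -0.69 and -0.89, and ACSS2, which makes acetyl-CoA from acetate, at -1.24. Of 23 for mitochondrial beta-oxidation, 12 fell and 1 rose (median -0.19), and CPT1A, which admits fatty acids to mitochondria, was at 0.00. Lipid droplet and triglyceride genes were mixed, with 11 of 21 falling and 6 rising (median -0.35). Changes of at least 2-fold were falls in 4 members and a rise in 1. That 1 was the monoglyceride lipase gene MGLL, which rose from 233.2, 231.6 and 235.4 to 802, 714 and 716.5 (1.67, SE 0.10), well beyond the spread of either group. The droplet coat gene PLIN2 rose by 0.37. For phosphatidylcholine and phosphatidylethanolamine synthesis, 9 of 18 fell and 4 rose (median -0.14). PEMT, the S-adenosylmethionine-dependent enzyme that makes phosphatidylcholine, was at 0.09 and not called.

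The methionine cycle and its side branches went both ways. Of 25 tested genes 13 rose and 7 fell, with a median of 0.24. MAT2A, which makes S-adenosylmethionine from Met and ATP, was at 9386, 9982 and 8898 at 0 h and 14030, 14620 and 15450 at 12 h. All 12 h libraries were higher (0.64, SE 0.05, adjusted p = 1.69e-14). METTL16, the methyltransferase that acts on the MAT2A transcript, rose from 1330, 1320 and 1287 to 2101, 2109 and 2049 (0.67, SE 0.05). Methionine synthase, MTR, was 1312, 1356 and 1429 and then 1603, 1624 and 1595 (0.24, SE 0.06), and its reactivating enzyme MTRR rose by 0.68 (SE 0.05). AHCY, which splits S-adenosylhomocysteine into adenosine and Hcy, rose by 0.32.

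Other members that rose were SRM, spermidine synthase, by 0.81, SMS, spermine synthase, by 0.57, and the salvage genes ENOPH1 by 0.48 and MTAP by 0.44. CBS and CTH, the transsulfuration enzymes that take Hcy out of the cycle, fell. CBS was at 410.8, 418.4 and 285 before and 118, 112.7 and 131.2 after (-1.63, SE 0.13, adjusted p = 2.23e-12). CTH went from 463.1, 545.9 and 402.7 to 165.4, 246 and 211.5 (-1.20, SE 0.15). Neither gene had overlapping groups. In the linked folate, serine and glycine list, 8 of 20 fell and 6 rose (median 0.03), against 31.1% and 30.2% of all tested genes. Serine synthesis genes were among those that fell (PHGDH -0.72, PSAT1 -0.62, PSPH -0.34), and the folate transporter genes SLC19A1 (0.79) and SLC25A32 (0.60) among those that rose.

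ATF4 and CHOP targets were mostly lower at 12 h in R8 cells. Of 30 tested, 22 fell and 5 rose, with a median of -0.64. ASNS, asparagine synthetase, was at 4582, 5527 and 4732 at 0 h and 2253, 2270 and 2161 at 12 h. It fell by 1.15 on the log2 scale (SE 0.07, adjusted p = 2.37e-12). SLC7A5, the large neutral amino acid transporter, which also carries Met, was at 57070, 60640 and 50320 and then at 23000, 22220 and 21680. The 12 h libraries held less than any at 0 h (-1.33, SE 0.07, adjusted p = 9.76e-13). TRIB3, an inhibitor of ATF4 and AKT, fell by 0.72, and STC2, a secreted stress glycoprotein, by 1.02. CDKN1A, which encodes the cell cycle inhibitor p21, fell from 2401, 2240 and 1681 to 378.2, 383.8 and 433.3 (-2.41, SE 0.15).

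The ATF4 transcript was slightly lower, at 23140, 24270 and 22620 against 19610, 20180 and 19970 (-0.23, SE 0.03). CHAC1, a glutathione-degrading enzyme of this programme, was at 227.6, 242.7 and 224.9 at 0 h and 181.5, 181.1 and 186 at 12 h (-0.34, SE 0.11, adjusted p = 0.00859). That small fall lost significance when spike-in totals set the library sizes (adjusted p = 0.0821). DDIT3, which encodes CHOP, had overlapping groups, 110.2, 102.9 and 90.2 against 133.2, 100.2 and 122.7 (0.23, SE 0.13, adjusted p = 0.127). DDIT4, an inhibitor of mTORC1, was the member that rose most, from 2839, 2738 and 3264 to 5833, 5993 and 6054 (1.02, SE 0.07).

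Of 23 plasma membrane amino acid transporters 13 fell and 4 rose (2 with spike-in totals as library sizes, median -0.58), with SLC43A1 at -2.25, SLC7A11, the cystine importer, at -1.40 and the glutamate transporter SLC1A3 at 0.74. Of 20 aminoacyl-tRNA synthetases 9 fell and 6 rose (median -0.14). Endoplasmic reticulum chaperones and degradation genes stayed near their 0 h level (9 of 27 falling, 5 rising, median -0.06), and the chaperone gene HSPA5 was at -0.10. NRF2 targets, which defend against oxidants, fell in 18 of 25 cases and rose in 2 (median -0.36). HMOX1, heme oxygenase, went from 1292, 1489 and 1208 to 405, 345 and 368.2 (-1.83, SE 0.11), and AKR1C3 from 8037, 9243 and 7786 to 2403, 2454 and 2462 (-1.78, SE 0.09). Reads of AKR1C3 may be shared with its close paralogs AKR1C1 and AKR1C2 (-1.61 and -1.41), and their values are uncertain in that respect.

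Genes of the cytosolic heat shock list rose, 11 of 18 higher and 3 lower with a median of 0.50. The list also holds the mitochondrial chaperonin genes HSPD1 and HSPE1. HSPA8, the constitutive Hsp70, was at 55880, 57620 and 59170 and then at 86520, 88800 and 84910. The groups were apart by 1.51-fold (0.59, SE 0.06, adjusted p = 6.16e-10). HSP90AA1 rose from 44010, 41530 and 44910 to 60210, 64420 and 62630 (0.52, SE 0.04), the mitochondrial HSPD1 by 0.87, and the Hsp90 co-chaperone CHORDC1 from 1480, 1525 and 1765 to 4084, 4410 and 4316 (1.43, SE 0.06). The inducible HSPA1A and HSPA1B were not called (-0.18 and 0.15), with the caution that these near-identical copies share reads. HSPB1, the small heat shock protein, fell by 0.89, and HSF1, the factor that drives the class, was at -0.02 (adjusted p = 0.795).

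Genes of G2 and mitosis rose together. Of 40 tested, 36 rose, 1 fell and 3 were not called, with a median of 0.69. AURKA, the mitotic kinase, had the smallest adjusted p of the genes that rose, at 1153, 1142 and 1230 normalized counts at 0 h and 2942, 3034 and 2874 at 12 h (1.33, SE 0.05, adjusted p = 1.8e-25). CCNB1, cyclin B1, was at 3934, 3657 and 4208 before and 6894, 7187 and 6844 after (0.83, SE 0.05). Its groups did not overlap, nor did those of KIF18A, a kinesin of the chromosome alignment machinery, at 301.4, 299.8 and 300.7 against 742.1, 854.1 and 702.3 (1.35, SE 0.08). MKI67, the proliferation antigen, rose 2.06-fold (7206, 7429 and 7792 against 15770, 15030 and 15340). TPX2, a spindle assembly factor, rose by 0.89 (SE 0.04), and HJURP, which loads the centromeric histone, by 1.50 (SE 0.05). CDC25B was the member that fell (-0.22).

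Promoters of this group are known for CCAAT boxes, bound by NF-Y. The 250 bases before the start of 2 of the risen members are shown for that reason, with CCAAT in capitals.

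CCNB1, chr5:69166900-69167149, plus strand: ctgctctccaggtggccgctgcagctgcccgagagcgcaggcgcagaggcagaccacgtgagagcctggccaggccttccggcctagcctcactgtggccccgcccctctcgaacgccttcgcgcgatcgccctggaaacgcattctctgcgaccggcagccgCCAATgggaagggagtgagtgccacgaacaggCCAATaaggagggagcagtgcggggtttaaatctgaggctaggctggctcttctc
KIF18A, chr11:28108157-28108406, minus strand: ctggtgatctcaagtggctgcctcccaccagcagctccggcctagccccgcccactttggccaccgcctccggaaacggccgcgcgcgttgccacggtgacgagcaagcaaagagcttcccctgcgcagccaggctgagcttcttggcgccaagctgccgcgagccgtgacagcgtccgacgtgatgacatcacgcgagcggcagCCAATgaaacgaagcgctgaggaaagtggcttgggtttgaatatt

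The boxes begin 87 and 55 bases before the CCNB1 start and 45 bases before that of KIF18A. CCAAT or its complement was present in 26 of 34 G2 and mitosis promoters (76.5%) and in 12 of 16 sterol synthesis promoters (75%), the group that fell, against 33% of all promoters. In ribosome biogenesis genes, which also rose, it was present in 12 of 43 (27.9%).

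The earlier phases of the cycle moved little. Of 40 replication genes 13 rose and 8 fell (median 0.05), and PCNA, the sliding clamp, was at 0.03. Of 21 G1 cyclins, E2F factors and inhibitors, 9 rose and 8 fell (median 0.04), CCNE1 at 0.47 and E2F1 at -0.65. Of 19 p53 targets 12 fell and 1 rose (median -0.34).

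Ribosome biogenesis genes rose almost as one. Of 50 tested, 46 rose, 1 fell and 3 were not called, with a median of 0.60. NCL, nucleolin, was at 39170, 37650 and 39180 at 0 h and 70130, 69120 and 68350 at 12 h (0.84, SE 0.04, adjusted p = 8.29e-22). NPM1, nucleophosmin, went from 43630, 40530 and 42370 to 75070, 77950 and 76650 (0.86, SE 0.05). Neither had overlapping groups. LYAR, a nucleolar growth regulator, rose by 1.16 and UTP20, a component of the small subunit processome, by 1.13. SNHG1, a host transcript of small nucleolar RNAs, was named by its p and rose from 2241, 2247 and 2398 to 5438, 5348 and 5579 (1.25, SE 0.04). GEMIN5, which assembles spliceosomal snRNPs, rose by 1.05 (SE 0.04). Of 11 genes of the MYC network, 5 fell and 3 rose (median -0.23), MNT, a MYC antagonist, falling by 1.73.

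Of 39 enzymes that add or remove methyl groups on histones and DNA, many of which use S-adenosylmethionine, 27 rose and 1 fell (median 0.23). KMT2A, a histone H3 lysine 4 methyltransferase, was at 2665, 2679 and 3094 and then at 4766, 4727 and 4818, above every 0 h library (0.77, SE 0.06). SETD2 rose by 0.67. The demethylase gene KDM6B was the member that fell, from 1282, 1339 and 1109 to 635.7, 466.9 and 580.6 (-1.14, SE 0.11). Maintenance DNA methyltransferase, DNMT1, was not called (0.08).

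Glycolysis genes divided, 12 of 25 rising and 8 falling (median 0.05). With spike-in totals as library sizes 5 rose and 4 fell, and leaving out 1 library moved the median to as much as 0.12 (without 0 h replicate 3 or 12 h replicate 1). LDHA, lactate dehydrogenase, rose from 39870, 35650 and 39450 to 60510, 65480 and 63830 (0.72, SE 0.05), and PFKP, a phosphofructokinase, from 6789, 6834 and 6339 to 12270, 10880 and 11370 (0.79, SE 0.04). The lactate exporter SLC16A3 fell by 1.43. Oxidative phosphorylation subunits stayed within 0.38 of 0 (11 of 40 rising, 10 falling, median -0.02). Of 32 lysosome and autophagy genes 17 fell and 3 rose (median -0.16), ULK1, an autophagy kinase, by -1.40. Of 6 TXNIP and arrestin-domain genes 4 fell and 1 rose (median -0.20).

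Among the rises named by size, TNC, tenascin-C, was at 1033, 907.2 and 1140 normalized counts at 0 h and 5690, 5271 and 5389 at 12 h. All 12 h libraries were well above those at 0 h (2.41, SE 0.11, adjusted p = 6.85e-13). VIM, the intermediate filament vimentin, was at 985.7, 994.5 and 1037 and then at 3982, 3402 and 3622, again without overlap (1.87, SE 0.07, adjusted p = 2.05e-19). Of 14 mesenchymal genes 8 rose and 2 fell (median 0.72), so the list did not move in a single direction. Of those that fell, 1 did so at least 2-fold, and the lowest value in the list was -2.18. FN1, fibronectin, fell from 4716, 4705 and 4535 to 2710, 2623 and 2626 (-0.81, SE 0.05). CDH2, N-cadherin, rose by 1.54 from 52.3, 51.5 and 70.6 normalized counts.

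Of 25 epithelial adhesion genes 13 fell and 7 rose (median -0.13). CDH1, E-cadherin, was at 9973, 9966 and 9333 before and 5803, 6178 and 5810 after (-0.72, SE 0.04). CLDN1, of the tight junction, fell from 6100, 6299 and 6132 to 2198, 2311 and 2085 (-1.49, SE 0.05), while EPCAM rose by 0.35. GRHL3, an epidermal transcription factor, fell by 2.39. Squamous differentiation genes went both ways, 11 of 25 rising and 12 falling (median 0.19). KRT6A rose from 161.8, 155.5 and 170 to 955.8, 753.9 and 809 (2.37, SE 0.14) and KRT6B from 1748, 1762 and 1718 to 5374, 4820 and 4692 (1.51, SE 0.05), copies of high similarity between which reads may be split. KRT16, a usual partner of KRT6, fell by 1.33, and TGM1, the keratinocyte transglutaminase, by 1.44.

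Other rises named by size were SLCO2A1, a prostaglandin transporter (2.60), NALCN, a sodium leak channel (2.39), P3H2, a collagen prolyl hydroxylase (2.38), HS6ST2, a heparan sulfate sulfotransferase (2.28), IGFL1 (2.06), LINC00707 (2.03), DPYD, which degrades pyrimidines (1.90), and HELB, a DNA helicase (1.88). SLCO2A1 was at 32.5, 22.4 and 20.9 normalized counts at 0 h and 148.4, 153.7 and 170.9 at 12 h, well separated at a low level. PRPF8, a core spliceosome gene, also met the rule (2.59, SE 0.90, adjusted p = 0.0197), but its libraries were at 49.2, 47.0 and 43.2 and then 309.4, 477.1 and 68.9. The spread at 12 h makes that value unreliable, and the gene lost the call when only the R8 libraries of the 2 groups were fitted.

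Among 18 circadian clock genes 12 fell and 3 rose (median -0.53). PER1 was at 1055, 1027 and 707.4 and then at 120.7, 129.8 and 131.2 (-2.88, SE 0.19), and PER2 at 1473, 1417 and 1043 and then 284.3, 257.4 and 235.1 (-2.35, SE 0.14). These are repressors of the clock, and both had 12 h libraries far below 0 h. The activators CLOCK and NPAS2 rose by 0.45 and 0.69, and ARNTL was not called (0.05). With 1 late time point the phase of the clock cannot be read. Of 23 interferon-stimulated genes 10 fell and 3 rose (median -0.07), and OASL (439.3, 387 and 311.2 against 35.8, 42.1 and 26.4) stood far below the rest. Of 14 TGF-beta and BMP feedback genes 9 fell and 3 rose (median -0.43), and all 4 metallothionein and zinc transporter genes fell (median -0.98).

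**Figure D3:**
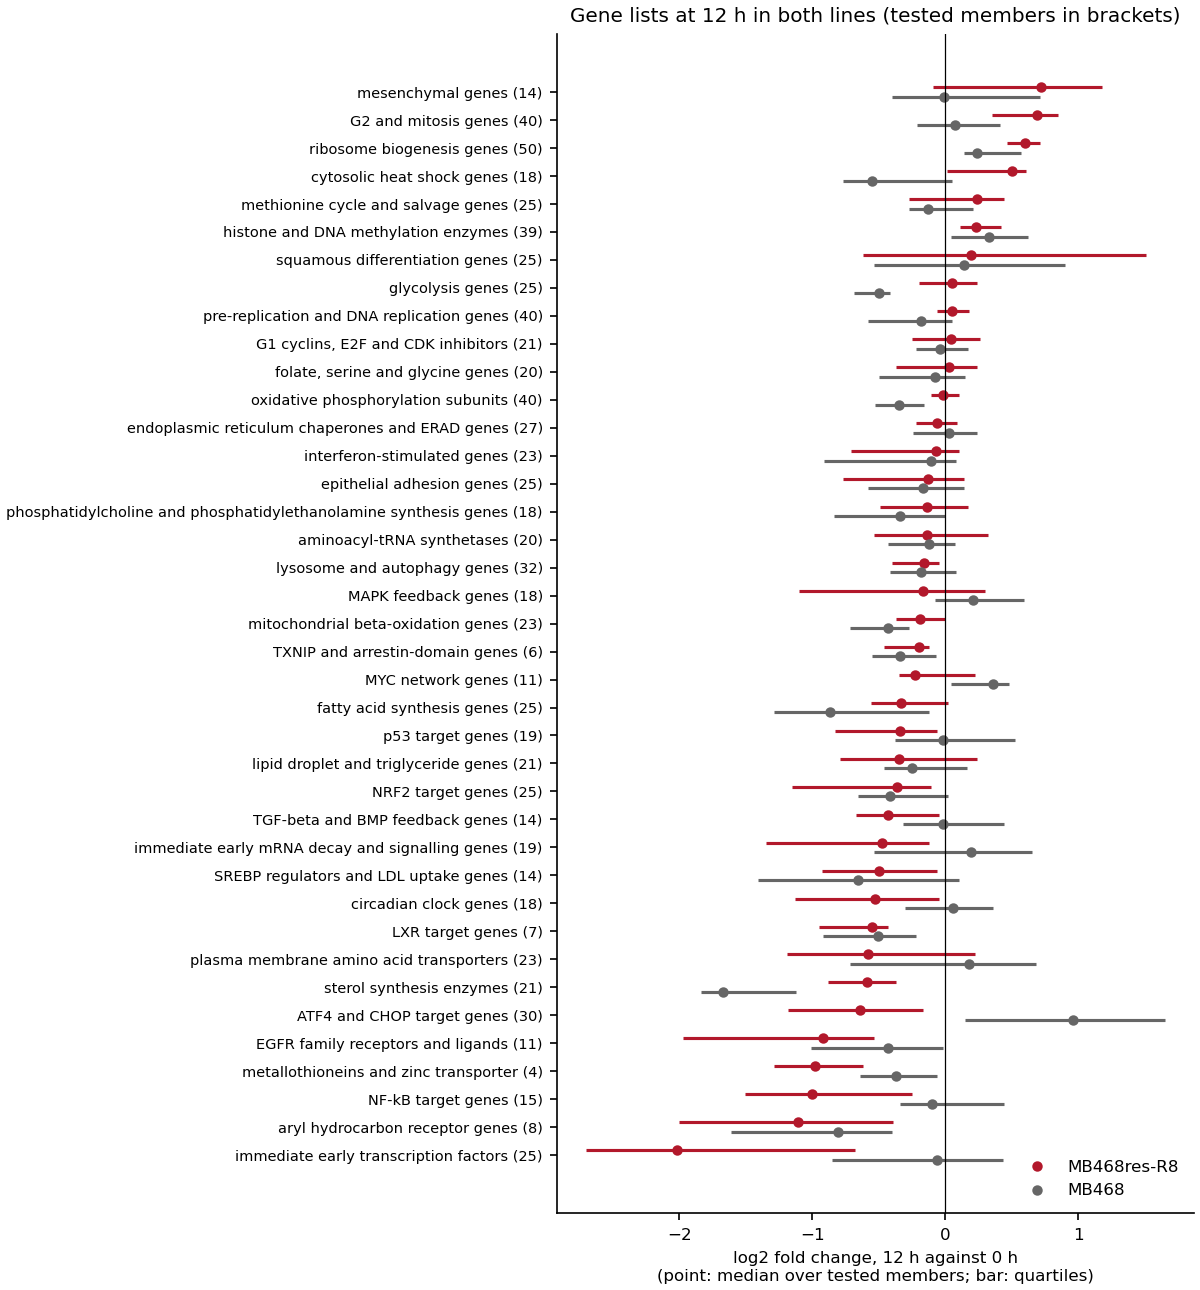
Gene lists at 12 h: median (point) and quartiles (bar) of the log2 fold change from 0 h to 12 h (x axis) over the tested members of each list (y axis, number tested in brackets), in red for MB468res-R8 and grey for MB468. Marker lists of cell types are not drawn, and in R8 the others run from a median of -2.02 for immediate early transcription factors to 0.72 for mesenchymal genes.

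The R8 libraries of earlier times give the course of these changes. All of these comparisons share the 0 h libraries. The 0.5 h libraries stood apart, with 2558 genes higher (17.4%) and 2409 lower (16.3%) than at 0 h, against 372 (2.52%) and 272 (1.85%) at 2 h, and they entered the results above only through the shared filter and estimate of spread. Between 2 h and 12 h, 9213 genes differed. The immediate early factors had a median of 1.42 at 0.5 h, with 19 members higher and 5 lower, and of 0.22 at 2 h, with 7 higher and 4 lower. FOS was 5.16 higher on the log2 scale at 0.5 h, -0.34 at 2 h and -2.18 at 12 h. NR4A1 was at 1.35, 0.95 and -5.81, so the large deficit appeared after 2 h.

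Sterol enzymes had medians of -0.02 at 0.5 h and 0.00 at 2 h before the -0.59 at 12 h, and no member moved beyond -0.29 to 0.23 at 2 h. Heat shock genes were at 0.04 and 0.02. ATF4 and CHOP targets were at 0.13 and 0.09, with 14 and 5 of 30 higher at 0.5 h and 2 h, CHAC1 among them at 2.06 and 0.54. G2 and mitosis genes had 39 of 40 members higher at 0.5 h (median 0.43) and 1 at 2 h (median 0.02). Ribosome biogenesis genes were lower at 0.5 h in 39 of 50 cases (median -0.28) and near 0 at 2 h (median 0.02). MAT2A differed from this pattern, being higher at 2 h (0.90) than at 12 h (0.64). SLC7A5 was at -1.15, 0.02 and -1.33 at the 3 times. Some other lists had moved earlier too. Of 8 aryl hydrocarbon receptor genes 6 were lower and 1 higher at 0.5 h (median -0.54), and 4 lower and 0 higher at 2 h (median -0.37). Of 39 histone and DNA methylation enzymes 22 were higher and 1 lower at 0.5 h (median 0.24), and 4 lower at 2 h. Of 11 EGFR family genes 5 were lower, 3 of them at least 2-fold, and 3 higher at 0.5 h.

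**Figure D4:**
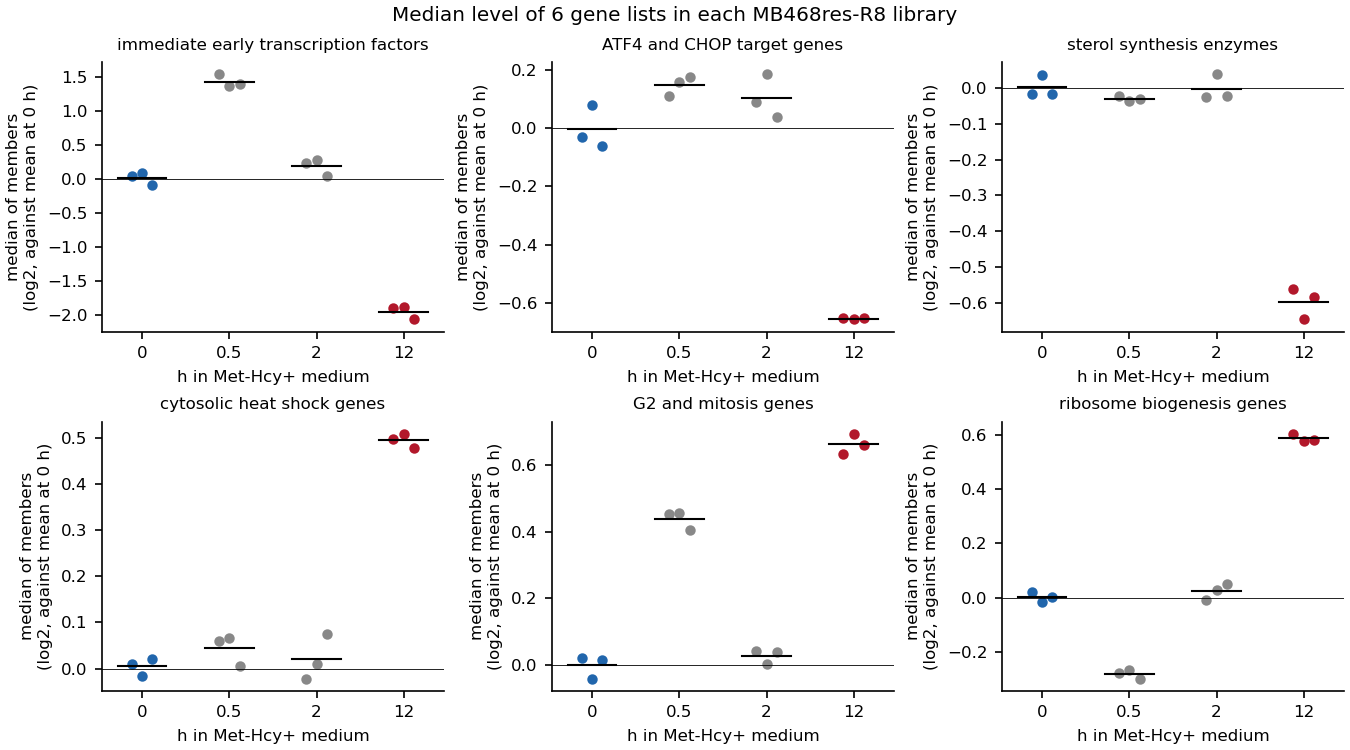
Median level of 6 gene lists in each of the 12 MB468res-R8 libraries: median over members of the log2 normalized count relative to the mean of the 0 h libraries (y axis) by hours in Met-Hcy+ medium (x axis), with 1 point per library and a line at the mean of 3. The 12 h libraries (red) lie apart from the 0 h ones (blue) in all 6 panels, below them for immediate early, ATF4 and CHOP and sterol genes and above them for heat shock, mitosis and ribosome biogenesis genes.

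The 12 h response of R8 was then set against that of MB468, which has its own 0 h libraries. In MB468, 5317 genes (36.1%) were higher and 5113 (34.7%) lower at 12 h. The difference between the lines, R8 minus MB468, was tested within the one model over all libraries and was called higher for 3863 genes (26.2%) and lower for 4473 (30.3%). With spike-in totals as library sizes that split was 4052 to 1745, and the median difference over all genes went from -0.05 to 0.20. The called differences named below kept their direction under both scalings.

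Immediate early factors separated the lines. In MB468 9 rose and 11 fell (median -0.06), and the difference was called lower in R8 for 22 of 25 (median -1.79, or -1.52 with spike-in scaling). EGR1 was higher at 12 h in MB468 (2.15) and lower in R8 (-2.18), a difference of -4.33 (SE 0.17, adjusted p = 1.73e-13). EGR3 was not called in MB468 (0.02), and its responses differed by -4.71 (SE 0.52). NR4A1 fell in both, by 1.58 in MB468, and differed by -4.24 (SE 0.44). LIF fell in MB468 by 2.21, and differed by -2.82 (SE 0.33).

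ATF4 and CHOP targets rose in MB468 (23 of 30 higher, 6 lower, median 0.96) and the difference was lower for 24 members and higher for 1 (median -1.36, or -1.09 with spike-in scaling). CHAC1 was at 4.39 in MB468 and -0.34 in R8 (-4.74, SE 0.15, adjusted p = 3.9e-24). SESN2, a stress-induced inhibitor of mTORC1, was at 3.05 and -0.17, and DDIT3 at 2.40 and 0.23. SLC7A5 rose in MB468 by 0.92 where it fell in R8, a difference of -2.25 (SE 0.10). ASNS did not show it. Its fall of 0.95 in MB468 and of 1.15 in R8 differed by -0.20 (SE 0.10, adjusted p = 0.0921), which did not pass the test. The authors reported the opposite direction for ASNS in MB468, a rise in Met-Hcy+ medium by quantitative PCR against a Met+ control. Their Met+ culture is listed at 12 h, whereas the fall given here is against Met+ libraries at 0 h, so the baselines are unlike. The reason for the opposite directions was not tested. MAT2A rose in both, more in MB468 (1.98, difference -1.33, SE 0.07).

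Heat shock, mitotic, sterol and glycolytic genes differed in the other direction. Genes of the heat shock list had a median of -0.55 in MB468, and the difference was higher in R8 for 11 of 18 and lower for 2 (median 1.04). HSPA8 was at -1.17 in MB468 and 0.59 in R8 (1.76, SE 0.08, adjusted p = 2.31e-16). G2 and mitosis genes had 19 rising and 15 falling in MB468 (median 0.07) and a difference that was higher for 32 of 40 (median 0.48), CCNB1 by 1.07 (SE 0.07). MKI67 rose in both lines (1.12 in MB468), and its difference was not called (-0.07, SE 0.07). Ribosome biogenesis rose in both, with a difference called higher for 34 of 50 and lower for 8 (median 0.31), NPM1 by 1.48.

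Sterol enzymes fell in both lines, more deeply in MB468 (20 of 21, median -1.67), and the difference was higher in R8 for 19 of 21 (median 0.96). HMGCS1 was at -2.62 in MB468 against -1.13 (1.49, SE 0.06). Glycolysis genes fell in 20 of 25 cases in MB468 (median -0.50), and differed upward in 20 (median 0.60). VIM fell in MB468 by 0.62, and its difference of 2.49 (SE 0.11, adjusted p = 6.31e-18) was among the largest of the genes named. OASL fell in both (-3.36 in MB468) with no called difference (-0.11, SE 0.43).

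**Figure D5:**
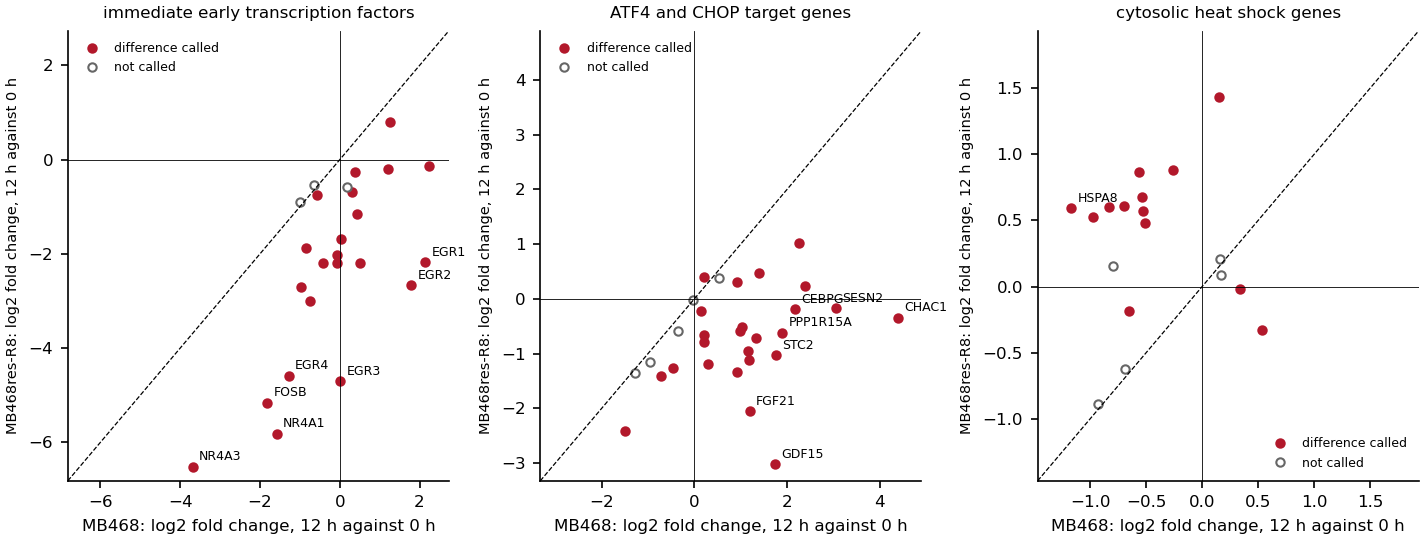
The 12 h response in the 2 lines for members of 3 lists: log2 fold change from 0 h to 12 h in MB468 (x axis) and in MB468res-R8 (y axis), with 1 point per gene, filled where the difference between the lines was called, and a dashed line of equal response. Most immediate early and ATF4 and CHOP genes lie below the line (difference lower for 22 of 25 and 24 of 30), and 11 of 18 heat shock genes lie above it with a called difference.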

How the data were processed

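Poly(A)+ RNA of MB468 and MB468res-R8 cells was sequenced in 24 libraries, 3 per group. The authors aligned reads with HISAT2 2.1.0 to GRCh38/hg38 with spike-in sequences and deposited raw counts per gene from featureCounts (Subread 1.5.3). Annotation version and strand setting are not given in the sources used here. A deposited table of size-factor-normalized counts, and another of the authors' log2 fold changes and p-values for their own model, were not used. The tools were edgeR 4.0.16 and, for alternatives, also DESeq2 1.42.0, run under R 4.3.3. The package limma 3.58.1 was loaded with edgeR, and no limma model was fitted. Without spike-ins, filterByExpr (minimum count 10, minimum total 15) kept 14741 of 26645 entries, TMM factors scaled the libraries, and a robust quasi-likelihood model with a mean for each of 8 groups was tested by contrasts, with Benjamini-Hochberg adjustment over all tested genes and a threshold of 0.05. The procedure was tested on simulated data in which few genes changed, with rises and falls drawn evenly. Changes as widespread as those seen here were not simulated. Normalized counts are counts over the TMM-scaled library size times its mean. Gene classes (protein-coding or long noncoding) and gene positions are from RefSeq GRCh38.p14 by Entrez identifier (14188 entries matched). Promoters, from RefSeq too, were matched by gene symbol with the first entry per symbol kept, and motifs were searched on both strands over 250 bases.

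Named genes were the 12 per direction with the largest change among those called, with groups apart and at least 5 CPM in the higher group, the 6 with the smallest p, the 4 with the largest difference between lines, and list members that define a pathway or lie at its extremes (2 per direction). AKR1C1, AKR1C2, CPT1A, CTGF, E2F1, ENOPH1, FADS2, GGPS1, HSPA1A, HSPA1B, HSPA5, KDR, MAFF, MTAP, PCNA, PEMT, PLIN2, PSPH, RCAN1, RELB, SCD, SLC25A32, SLC7A11 and UTP20 were added to that rule after their values were seen. The members and lists were chosen with earlier results of these data known. Some genes are not reported here.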

Additional observations from a re-analysis of the deposited data

Results flagged for a closer look

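Of 245 named genes, 200 had a called difference between the 12 h responses of the lines. Those listed here, 33 genes, changed in opposite directions in R8 and MB468, differed by at least 1 on the log2 scale and reached 100 normalized counts in an R8 group. Values are R8 minus MB468, with 3 libraries per group, by edgeR's quasi-likelihood test.

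Lower in R8 and higher in MB468 were stress genes of the ATF4 and CHOP programme, CHAC1 (-4.74), STC2 (-2.78), PPP1R15A (-2.52), SLC7A5 (-2.25), TRIB3 (-2.05), SLC3A2 (-1.53) and CTH (-1.49). STC2 was at -1.02 in R8 and 1.75 in MB468. The same held for the immediate early and feedback genes EGR1 (-4.33), FOS (-2.69), IER2 (-2.07) and DUSP1 (-2.06). It also held for IL6 (-2.41) and TNFAIP3 (-1.99) among NF-kB targets, the p53 target TP53INP1 (-2.27), the transglutaminase TGM1 (-2.06), the clock repressor NR1D2 (-2.04), the CDK inhibitor CDKN2B (-1.82) and the zinc exporter SLC30A1 (-1.69).

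Higher in R8 and lower in MB468 were the chaperones HSPA8 (1.76), HSP90AA1 (1.49), HSP90AB1 (1.43), HSPD1 (1.43) and HSPH1 (1.14). Beside them stood nucleophosmin NPM1 (1.48), the glycolytic PFKP (1.48) and LDHA (1.36), the ATP synthase subunit ATP5C1 (1.09), cyclin CCNB1 (1.07) and NFKBIZ (1.09). Larger differences were those of the filament gene VIM (2.49), the procollagen enhancer PCOLCE2 (2.36) and the splicing regulator HNRNPLL (2.29). HNRNPLL moved mostly in MB468 (-1.90, against 0.38 in R8). PRPF8 had the largest value (5.24, SE 1.26, adjusted p = 0.00181), on libraries that disagreed with each other.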

How the results depend on the processing

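The 9036 calls at 12 h ranged over 8313 to 8695 when 1 library was left out and stood at 8882 with DESeq2's Wald test. With spike-in totals as library sizes they were 5887 (2766 higher), the difference between lines was lower for 1745 genes, members called higher numbered 0 for EGFR family and NF-kB and NRF2 target genes, 2 for amino acid transporters and 5 for glycolysis, and members called lower 4 for glycolysis and 0 for G2 and mitosis and for ribosome biogenesis. With at least 10 counts in every library, fewer genes were tested, 861 changed 2-fold (136 higher, 725 lower), medians were -1.77 (immediate early factors), -0.85 (EGFR family), -0.81 (NF-kB), 0.32 (methionine cycle) and -0.52 (aryl hydrocarbon receptor), and 1 mesenchymal gene was lower. A restriction to genes of mean log2 CPM of at least 3, chosen after seeing the data, left 549 (55 and 494). Thinned to 11713037 counts per library, medians were 0.30 for the methionine cycle and 0.10 for glycolysis. Leaving out 1 library gave medians of 0.23 to 0.27 (methionine cycle), -0.68 to -0.56 (ATF4 and CHOP), 0.48 to 0.53 (heat shock), 0.05 to 0.12 (glycolysis, 0.05 with every library and 0.10 to 0.12 without 0 h replicate 1 or 3 or 12 h replicate 1 or 3), 0.62 to 0.72 (G2 and mitosis) and 0.59 to 0.62 (ribosome biogenesis), 1 to 2 NF-kB genes higher (1 without 0 h replicate 3) and 0 to 1 ribosome biogenesis genes lower (0 without 0 h replicate 1 or 12 h replicate 3). These causes were not tested. A fit with a replicate block called 8940 genes, 8916 of them shared, and BHMT and NFKBIA lost their calls. Same-numbered libraries correlated at -0.155 on average over 6520 genes and other pairs at 0.0774. These averages are tied to each other, since values were centred within each group, and single pairs ran from -0.381 to 0.364. Whether the numbers pair the samples therefore cannot be told from them. Of 3897 values for named genes 3813 kept direction and side of the threshold, 75 lost the call, 9 gained it and 0 changed sign. Direction was judged only where the main or the alternative value was called. Under every alternative that gave a value for the gene, 213 of 245 genes kept direction and side.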

Other observations

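Some called values rested on 1 library. CSNK2B was at 6.34, 11.2 and 669.5 normalized counts at 0 h and 8.94, 3.42 and 6.61 at 12 h (-5.08 on the log2 scale, SE 1.29), with 1 high library. BAG6 was at 23.0, 928.5 and 31.4 and then at 23.3, 28.5 and 26.4 (-3.64, SE 1.32). The groups overlapped in both, and both were chosen after their values were seen. KDR, the endothelial receptor gene that was the most abundant endothelial marker, was at 1040, 934.1 and 971.5 at 0 h and 169, 219.8 and 197.3 at 12 h (-2.35, SE 0.17), without overlap.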
